A study of Mus musculus with 15 samples.

Results

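The genes of the Wnt pathway were followed through 15 RNA-seq libraries of adult neural stem cells (aNSCs), the dividing precursor cells of the adult brain. The members were all protein-coding mouse genes whose symbol is Wnt, Fzd, Dkk, Sfrp or Rspo followed by a digit, together with Lrp5, Lrp6, Ctnnb1, Apc, Gsk3b, Axin1, Axin2, Lef1, Tcf7, Tcf7l1 and Tcf7l2. This rule gave 52 of the 53801 genes in the count table. They were 19 Wnt ligands, 10 Frizzled receptors, 2 LRP co-receptors, 4 R-spondins, 4 Dkk and 4 Sfrp antagonists, 5 genes of β-catenin and its destruction complex and 4 TCF/LEF transcription factors.

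The cells were isolated from the subventricular zone of mice of the strain C57BL6/J-129sv at an age of 2 months and were grown in suspension with EGF and bFGF. Every mouse carried the Rosa26-CreERT2 transgene, which makes a Cre recombinase that 4-hydroxytamoxifen (4-OHT) activates, and either 1 floxed and 1 intact allele of Trrap (Fl/+) or a pair of floxed alleles (Fl/Fl). There were 3 groups of 5 cultures, each of 1 mouse. Untreated Fl/+ cultures and Fl/+ 4-OHT cultures both came from mice 19, 24, 26, 35 and 36, and Fl/Fl 4-OHT cultures came from mice 27, 28, 29, 37 and 39, with 5 days of treatment per the labels. Trrap is a large adaptor subunit of histone acetyltransferase complexes. Because the Fl/+ 4-OHT cultures carry 1 floxed allele that Cre can also delete, the Trrap deletion comparison (Fl/Fl 4-OHT against Fl/+ 4-OHT) by design sets deletion of both alleles against deletion of 1. The Fl/Fl and Fl/+ cultures came from different mice, and there was no untreated Fl/Fl group. Differences between these mice before treatment thus cannot be told apart from deletion. Below, "after Trrap deletion" refers to this comparison. Expression was counted as sequencing reads per gene and is given here in CPM (reads per 1000000 counted reads), scaled between libraries.

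The libraries held 25.7 M to 32.2 M counts. Trrap itself stood at 92.9, 115, 142, 89.2 and 82.8 CPM in Fl/Fl 4-OHT cultures 27, 28, 29, 37 and 39, at 138, 204, 171, 165 and 142 CPM in Fl/+ 4-OHT cultures 19, 24, 26, 35 and 36, and between 179 and 214 CPM in untreated Fl/+ cultures. It fell by 0.64 on the log2 scale after Trrap deletion (SE 0.16, adjusted p = 0.0115, edgeR), with overlapping groups. With 4-OHT in Fl/+ cultures its log2 fold change was -0.21 (SE 0.11, adjusted p = 0.234, and -0.22 with an adjusted p of 0.0838 with the mouse as a block, edgeR), which did not pass the test. Counts per gene do not separate the floxed exons from the rest of the transcript. The library labelled Fl/Fl 39, a female by its label, had Xist at 0.313 CPM and Y-linked genes at 213 CPM in sum, and the library labelled Fl/+ 4-OHT 36, a male, had Xist at 74.7 CPM beside Y-linked genes at 205 CPM. Results are therefore also given without mice 36 and 39. Of the 12 neural stem cell markers examined, none was under 1 CPM in every library, and their sum was between 7774 and 13616 CPM. The 6 microglia and blood cell markers summed to at most 2 CPM in any library, the 8 meningeal fibroblast and pericyte markers to at most 5.9 CPM and the 6 endothelial markers to at most 8.8 CPM.

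In the pathway that runs through β-catenin, a secreted Wnt protein binds a Frizzled receptor together with LRP5 or LRP6. Without a Wnt signal, a destruction complex built on Axin and APC lets the kinase GSK3β mark β-catenin for degradation, and with it β-catenin builds up, enters the nucleus and joins TCF/LEF factors on their target genes. R-spondins strengthen the signal at the membrane, while Dkk and Sfrp proteins are secreted antagonists. Some Wnt proteins, Wnt5a among them, act mostly through routes that do not need β-catenin. Wnt signalling is known for its part in the proliferation of stem cells and the making of neurons in the subventricular zone.

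Of the 52 members, 34 had enough counts to be tested in all 3 comparisons and 16 in none. The 16 were Wnt1, Wnt2b, Wnt3a, Wnt8a, Wnt8b, Wnt9b, Wnt10a, Wnt10b, Wnt11, Wnt16, Dkk1, Dkk2, Dkk4, Rspo2, Rspo4 and Lef1. Rspo3 was tested in the Trrap deletion comparison alone and Rspo1 alone in Fl/Fl 4-OHT against untreated Fl/+. Dkk4 had 0 counts in all 15 libraries, which allows up to 3 counts, or 0.0932 to 0.117 CPM, per library. Wnt3a had 2 counts in all and Wnt1 7. All 10 Frizzled receptors, both LRP co-receptors and all 5 genes of β-catenin and its destruction complex were tested in each comparison.

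Levels of different genes were compared per kilobase of merged exons. In untreated Fl/+ cultures Ctnnb1, which encodes β-catenin, stood at 270 ± 32.5 CPM per kb (SD, n = 5) and was the highest of all members. Within the class of β-catenin and its destruction complex, Apc followed at 26.5 ± 4.55 CPM per kb, Gsk3b at 20.9 ± 2.25, Axin1 at 20 ± 1.99 and Axin2 at 7.24 ± 0.447. The ranges of Apc, Gsk3b and Axin1 overlapped with their neighbours in this order, while Ctnnb1 lay above Apc and Axin1 above Axin2 in every culture.

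Wnt7b was the leading ligand, at 70.4 ± 11.1 CPM per kb in untreated Fl/+ cultures, and it made up between 53.5% and 67.6% of the summed level of the 19 ligands in each of them. Wnt7a (20.1 ± 2.22 CPM per kb) and Wnt5a (17.4 ± 4.58) came next with overlapping ranges. Wnt4 (4.01 ± 3.31) and Wnt5b (3.85 ± 1.24) formed a lower pair, and Wnt3 (1.36 ± 0.557), Wnt2, Wnt9a and Wnt6 were lower still. Wnt7b also led in both 4-OHT groups, where Wnt7a came next in Fl/+ cultures (20.9 ± 5.57 against 12.7 ± 3.71 CPM per kb for Wnt5a) and Wnt5a in Fl/Fl cultures (20.6 ± 3.72 against 17.7 ± 1.47 for Wnt7a).

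Among the receptors the leading gene differed between the groups. Fzd9 led in untreated Fl/+ cultures, with a mean of 31.8% of the summed Frizzled level, Fzd3 in Fl/+ 4-OHT cultures with 24.1%, and Fzd1 in Fl/Fl 4-OHT cultures with 28.1%. The sums themselves were 85.4 ± 6.79, 77.4 ± 9.29 and 86.9 ± 6 CPM per kb in that order. Neighbouring receptors overlapped in untreated cultures all the way from Fzd9 to Fzd4, and Fzd6 alone (0.347 ± 0.136 CPM per kb) lay apart below the rest. Lrp5 (6.94 ± 1.37) and Lrp6 (5.13 ± 0.895) were at similar levels with overlapping ranges.

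Of the TCF/LEF factors, Tcf7l1, known mainly as a repressor, was highest at 16.5 ± 4.75 CPM per kb in untreated Fl/+ cultures, followed by Tcf7l2 (3.37 ± 0.387) and Tcf7 (1.55 ± 0.281), with no overlap between neighbours. Lef1 was at 0.0593 ± 0.0868 CPM per kb. Tcf7l1 made up 76.1% of the class on average in untreated Fl/+, 69.1% in Fl/+ 4-OHT and 58.8% in Fl/Fl 4-OHT cultures. Dkk3, a divergent member of the Dkk family, made up 94.9% of the class sum in untreated cultures at a level of 0.86 ± 0.956 CPM per kb, and 99.8% in Fl/+ 4-OHT and 99.7% in Fl/Fl 4-OHT cultures, at 14.3 ± 8.06 and 10.9 ± 5.83 CPM per kb.

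**Figure D1:**
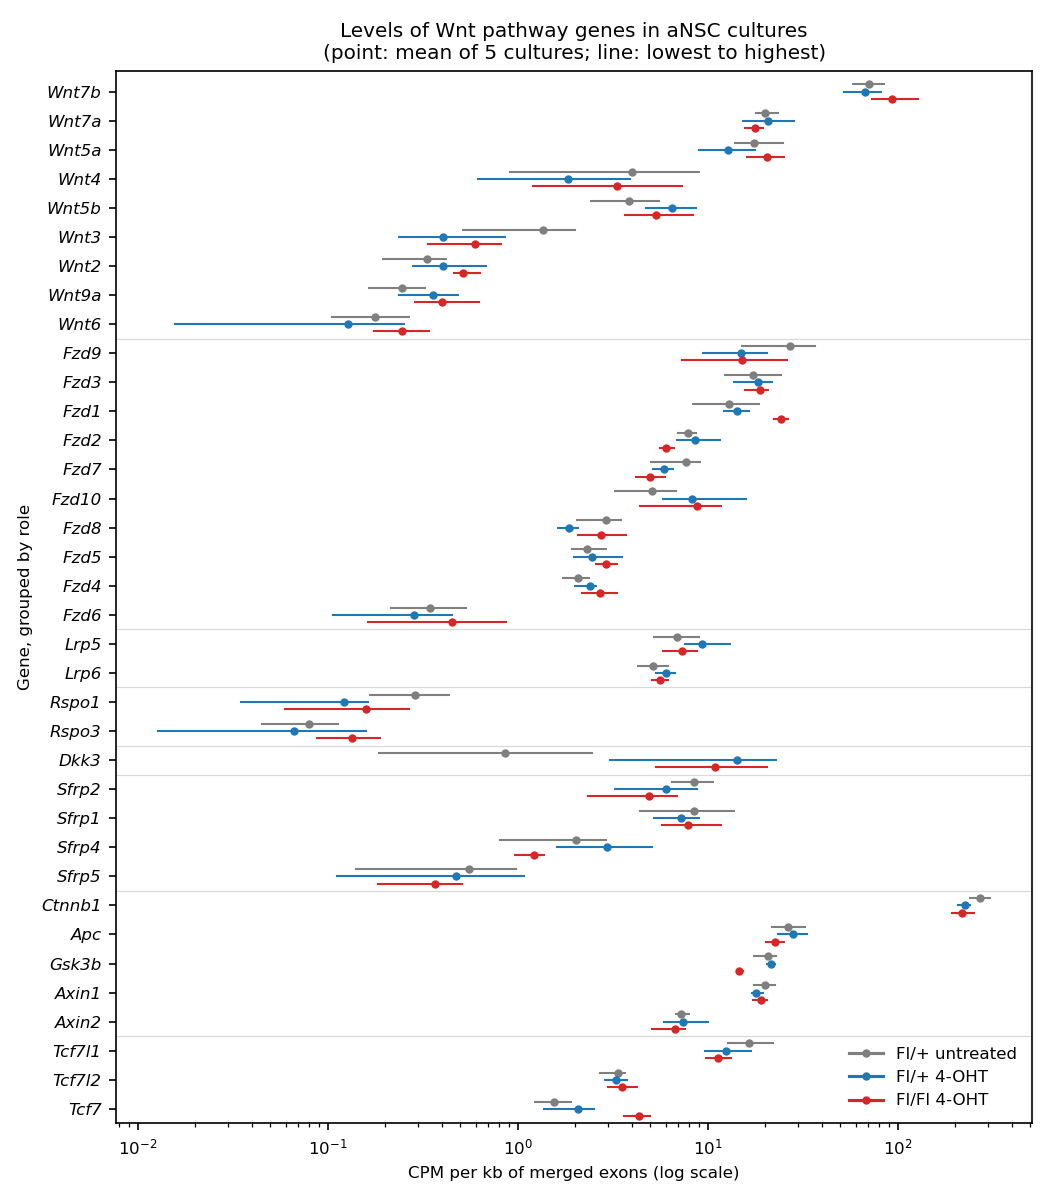
Levels of the 36 members tested in at least 1 comparison, in CPM per kb of merged exons on a log axis, by role. Points are means of 5 cultures and lines run from the lowest to the highest culture. Ctnnb1 lies above every other member, Wnt7b leads the ligands, and Dkk3 in untreated Fl/+ cultures lies below both 4-OHT groups.

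In the Trrap deletion comparison single genes of several classes differed, most clearly Gsk3b, Fzd1 and Tcf7, while Ctnnb1 and its target Axin2 did not pass the test. Between Fl/Fl 4-OHT and Fl/+ 4-OHT cultures 8 of the 35 tested members were called at an adjusted p under 0.05, or 22.9%, beside 31.7% of all 15036 genes tested. Fzd1, Tcf7, Wnt5a and Fzd8 were higher in Fl/Fl 4-OHT cultures (16.8% of all genes were called higher) and Gsk3b, Sfrp4, Fzd2 and Apc lower (15% of all genes). The median log2 fold change was 0.09 over the tested members and 0.02 over all genes tested. In 6 tested members, or 17.1%, the groups did not overlap, beside 22.6% of all genes. The share of members called was thus below that of all genes, and the calls are described one by one. In bulk cultures fewer cells of a type and less RNA per cell cannot be told apart.

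Gsk3b, the kinase of the destruction complex, was measured at 142, 150, 140, 145 and 144 CPM in Fl/Fl 4-OHT cultures 27, 28, 29, 37 and 39 and at 209, 221, 202, 215 and 213 CPM in Fl/+ 4-OHT cultures 19, 24, 26, 35 and 36. Every Fl/Fl 4-OHT culture was below every Fl/+ 4-OHT culture, and both groups were narrow. It fell by 0.54 on the log2 scale (SE 0.0539, adjusted p = 0.000108, edgeR), from 212 ± 7.04 to 144 ± 3.84 CPM (SD, n = 5). An exact two-sided permutation test over the 10 libraries gave p = 0.00794, the smallest it can give. The difference was of like size among mice numbered under 30 (log2 difference -0.55) and over 30 (-0.56), 2 ranges of mouse numbers between which several members differed within a group. Untreated Fl/+ cultures held 172, 205, 199, 226 and 225 CPM, also above all Fl/Fl 4-OHT cultures.

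Apc, the scaffold of the same complex, stood at 379, 378, 328, 326 and 409 CPM in Fl/Fl 4-OHT cultures and at 435, 453, 380, 537 and 474 CPM in Fl/+ 4-OHT cultures. The groups overlapped only through Fl/Fl culture 39 and Fl/+ 4-OHT culture 26. It fell by 0.31 (SE 0.100, adjusted p = 0.0366, edgeR), and without mice 36 and 39 the adjusted p was 0.0535 at a log2 fold change of -0.35. The call was also lost when Fl/Fl culture 27, 28, 29 or 37 or Fl/+ 4-OHT culture 35 or 36 was left out. Ctnnb1 averaged 1136 ± 121 CPM in Fl/Fl 4-OHT and 1170 ± 61.9 CPM in Fl/+ 4-OHT cultures, a log2 fold change of -0.03 (SE 0.0868, adjusted p = 0.843, edgeR) that turned to 0.01 with scaling by library size alone. Axin1 (log2 fold change 0.10, SE 0.0683) and Axin2 (-0.14, SE 0.156) did not pass the test either, with adjusted p-values of 0.275 and 0.542 from edgeR. Axin2, a widely used readout of β-catenin signalling, stood at 37.0, 40.9, 41.9, 28.1 and 36.8 CPM in Fl/Fl 4-OHT cultures and at 36.1, 55.3, 44.3, 36.9 and 32.4 CPM in Fl/+ 4-OHT cultures. Its groups overlapped through most of their range.

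Fzd1 showed the largest gain in level among the receptors, with 93.4, 105, 99.4, 102 and 111 CPM in Fl/Fl 4-OHT cultures and 51.1, 66.0, 51.7, 69.1 and 61.5 CPM in Fl/+ 4-OHT cultures. All Fl/Fl 4-OHT cultures were above all Fl/+ 4-OHT cultures with a wide gap. The rise was 1.72-fold, a log2 fold change of 0.79 (SE 0.0932, adjusted p = 0.000246, edgeR). In untreated Fl/+ cultures Fzd1 differed by mouse, with 43.6, 35.3 and 40.1 CPM in mice 19, 24 and 26 and 77.8 and 74.4 CPM in mice 35 and 36. Within the lower and the higher mouse numbers the log2 difference after Trrap deletion was 0.82 and 0.71.

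Fzd8 was measured at 13.8, 13, 12.5, 22.3 and 20.5 CPM in Fl/Fl 4-OHT cultures and at 10.5, 10.2, 9.80, 12.4 and 12.4 CPM in Fl/+ 4-OHT cultures. The groups did not overlap, but only by a small margin, and Fl/Fl cultures 37 and 39 stood above the other 3. The log2 fold change of 0.58 (SE 0.177, adjusted p = 0.0287, edgeR) became 0.52 with an adjusted p of 0.0884 without mice 36 and 39. The call was also lost without Fl/+ 4-OHT culture 19, 24 or 26 or Fl/Fl culture 37 or 39. Fzd2 went the other way, with 21.0, 20.6, 22.8, 21.6 and 24.4 CPM in Fl/Fl 4-OHT cultures and 30.4, 33.0, 42.5, 25.9 and 25.2 CPM in Fl/+ 4-OHT cultures. Its groups did not overlap, and the gap was wider among mice numbered under 30 (log2 difference -0.69) than over 30 (-0.15). It fell by 0.49 (SE 0.14, adjusted p = 0.0199, edgeR) and kept its call without mice 36 and 39. The other 7 receptors did not pass the test, with log2 fold changes between -0.23 (Fzd7) and 0.67 (Fzd6), and neither did Lrp5 (-0.33, SE 0.173, adjusted p = 0.169) or Lrp6 (-0.10, SE 0.076, adjusted p = 0.343).

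Wnt5a was the ligand called after Trrap deletion, with 183, 145, 156, 126 and 198 CPM in Fl/Fl 4-OHT cultures and 70.8, 140, 82.3, 120 and 85.1 CPM in Fl/+ 4-OHT cultures. The groups overlapped because Fl/+ 4-OHT culture 24 was above Fl/Fl culture 37. It rose by a log2 fold change of 0.71 (SE 0.192, adjusted p = 0.0162, edgeR), and without mice 36 and 39 by 0.56 with an adjusted p of 0.0833. In untreated Fl/+ cultures it was at 136 ± 35.8 CPM, between both 4-OHT groups (161 ± 29.1 and 99.6 ± 29.0 CPM). Wnt7b, the most abundant ligand, stood at 384, 379, 360, 624 and 526 CPM in Fl/Fl 4-OHT cultures and at 305, 257, 389, 398 and 303 CPM in Fl/+ 4-OHT cultures. Fl/Fl cultures 37 and 39 were above all other libraries, and the other 3 were within the range of Fl/+ 4-OHT cultures. Its log2 fold change of 0.47 (SE 0.173, adjusted p = 0.0569, edgeR) did not pass the test, but did with DESeq2's Wald test, with scaling by library size alone and with the range of mouse numbers as a covariate.

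Of the antagonists, Sfrp4 measured 5.69, 4.04, 5.77, 4.60 and 5.28 CPM in Fl/Fl 4-OHT cultures and at 11.6, 13.9, 21.3, 8.60 and 6.74 CPM in Fl/+ 4-OHT cultures. The groups did not overlap, and Fl/+ 4-OHT culture 26 was well above the others. It fell by 1.27 on the log2 scale (SE 0.28, adjusted p = 0.0059, edgeR). In untreated Fl/+ cultures Sfrp4 also split by mouse, with 11.1, 12.2 and 12.2 CPM in mice 19, 24 and 26 but 3.39 and 3.76 CPM in mice 35 and 36, which is below every Fl/Fl 4-OHT culture. The log2 difference after Trrap deletion was -1.47 in the lower and -0.58 in the higher mouse numbers. Sfrp1, Sfrp2, Sfrp5 and Dkk3 did not pass the test, with log2 fold changes of 0.14, -0.27, -0.35 and -0.38.

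Tcf7, which encodes the factor TCF1, gave the largest rise among the called members. It stood at 12.5, 10.2, 11.9, 9.47 and 13.1 CPM in Fl/Fl 4-OHT cultures, at 5.95, 5.06, 3.59, 6.59 and 6.21 CPM in Fl/+ 4-OHT cultures and at 4.99, 3.24, 3.88, 3.54 and 4.64 CPM in untreated Fl/+ cultures. Every Fl/Fl 4-OHT culture was above every other library. The rise after Trrap deletion was 2.11-fold, a log2 fold change of 1.08 (SE 0.173, adjusted p = 0.00115, edgeR). Tcf7l1 (log2 fold change -0.12, SE 0.147, adjusted p = 0.566) and Tcf7l2 (0.11, SE 0.116, adjusted p = 0.482) did not pass edgeR's test, and Lef1 had too few counts. Per kb, Tcf7 reached 4.36 ± 0.594 CPM in Fl/Fl 4-OHT cultures, above the mean of Tcf7l2 (3.53 ± 0.534), whereas it was below Tcf7l2 in both Fl/+ groups.

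**Figure D2:**
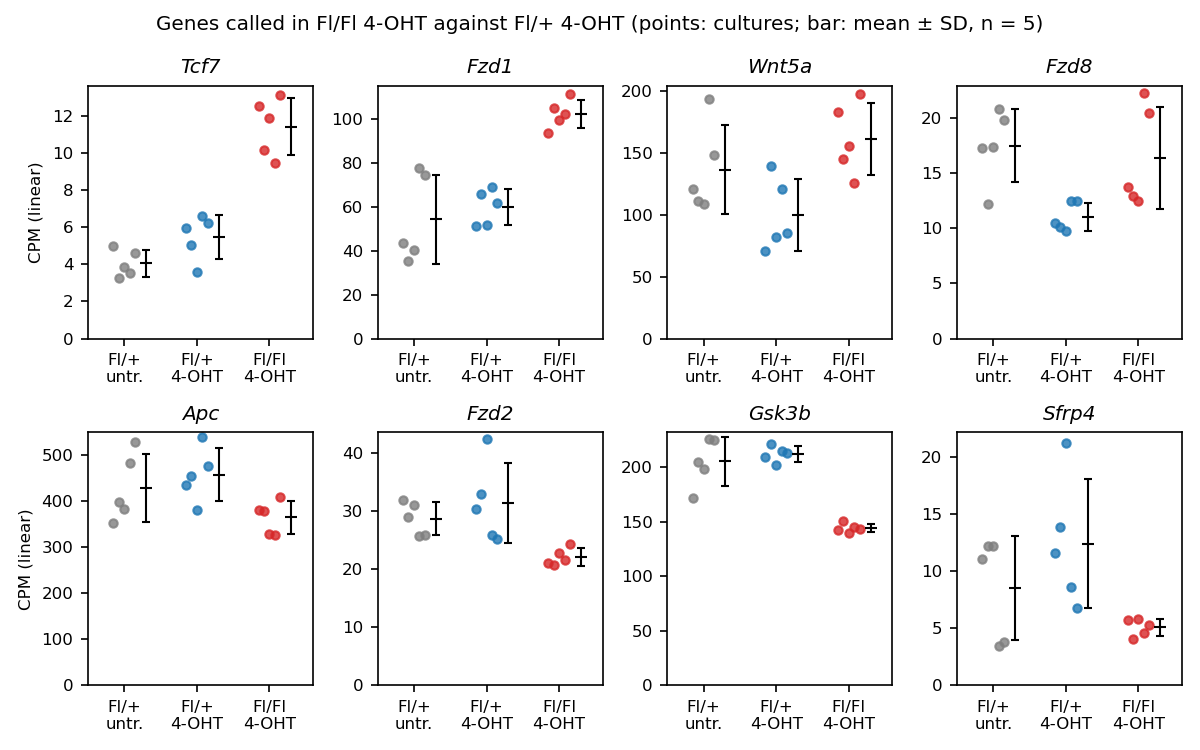
The 8 members called after Trrap deletion, in CPM on linear axes that start at 0, in 3 groups of 5 cultures. Points are cultures, and bars give the mean ± SD. Fl/Fl 4-OHT cultures lie apart from Fl/+ 4-OHT cultures in all panels but Wnt5a and Apc, and the untreated Fl/+ values of Fzd1 and Sfrp4 form a high and a low cluster.

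Of the 8 calls, those of Gsk3b, Fzd1, Tcf7, Sfrp4 and Fzd2 held in all 18 alternative analyses and Wnt5a in 17, while Fzd8 held in 12 and Apc in 8. Without mice 36 and 39, 5 members were called, and over all genes the share called was 23.2%, down from 31.7%. Of the 9 tested neuron markers 2 were called lower and none higher, or 22.2%, beside 15% of all genes called lower, and the 10 neuron markers summed to 581 to 825 CPM in Fl/Fl 4-OHT and to 835 to 1021 CPM in Fl/+ 4-OHT cultures. Most of that sum was Map2 (mean 684 CPM in Fl/Fl 4-OHT and 798 CPM in Fl/+ 4-OHT cultures). Of the neural stem cell markers 4 of 12 were called lower and none higher, or 33.3% beside the same 15%. Of the astrocyte markers 1 of 8 and of the ependymal and choroid plexus markers 1 of 3 were called higher, and of the oligodendrocyte markers none of 10 was called. Their part in the results for the members was not tested.

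4-OHT itself, compared in Fl/+ cultures of the same 5 mice, was accompanied by a large rise of Dkk3 and by lower Wnt3 and Fzd8. In this comparison the cultures differ both by exposure to 4-OHT and, by design, by deletion of 1 Trrap allele, which cannot be told apart. Of 34 tested members 3 were called, or 8.8%, beside 13.8% of all 14821 genes tested. Dkk3 was higher (7.34% of all genes were called higher) and Wnt3 and Fzd8 were lower (6.45%). The cultures of 1 mouse resembled each other, and with the mouse as a block 10 members were called, 4 higher and 6 lower, beside 25.7% of all genes. The median log2 fold change was 0.05 over the members and -0.01 over all genes.

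Dkk3 stood at 3.58, 0.628, 8.22, 0.693 and 1.33 CPM in untreated cultures of mice 19, 24, 26, 35 and 36, and at 77.3, 10.3, 64.3, 31.2 and 57.7 CPM in their 4-OHT cultures. It rose in all 5 mice, and the lowest 4-OHT culture was above the highest untreated culture. The rise was 16.6-fold, a log2 fold change of 4.05 (SE 0.763, adjusted p = 0.00622, edgeR), and 4.35 with the mouse as a block (adjusted p = 0.000215). A sign-flip test over the 5 mice gave an exact p of 0.0625, the smallest it can give. The Fl/Fl 4-OHT cultures held 18.0, 31.4, 39.3, 68.7 and 25.5 CPM of Dkk3, within the range of Fl/+ 4-OHT cultures.

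Wnt3 was at 5.17, 6.14, 4.23, 1.58 and 3.83 CPM in untreated cultures and at 0.777, 2.63, 0.751, 0.728 and 1.3 CPM in 4-OHT cultures of the same mice. It was lower with 4-OHT in all 5 mice, although untreated mouse 35 lay within the range of the 4-OHT cultures. It fell by 1.75 on the log2 scale (SE 0.439, adjusted p = 0.0239, edgeR; block -1.80, adjusted p = 0.00293). Without mouse 36 the adjusted p was 0.06 without the block and 0.00671 with it. The call without the block was also lost when the untreated culture of mouse 19 or the 4-OHT culture of mouse 19, 26, 35 or 36 was left out.

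Fzd8 was at 17.3, 12.2, 17.3, 20.8 and 19.9 CPM in untreated cultures and, as given above, at 9.80 to 12.4 CPM in 4-OHT cultures, and it was lower with 4-OHT in all 5 mice. It fell by 0.66 on the log2 scale (SE 0.155, adjusted p = 0.0181, edgeR), and the call was lost only without the 4-OHT culture of mouse 19 (adjusted p = 0.0538). Since the Fl/+ 4-OHT cultures serve in both comparisons, the fall of Fzd8 with 4-OHT and its rise after Trrap deletion rest on shared libraries. Set directly against each other, Fl/Fl 4-OHT and untreated Fl/+ cultures had 16.4 ± 4.63 and 17.5 ± 3.33 CPM of Fzd8, a log2 fold change of -0.08 (SE 0.204, adjusted p = 0.79, edgeR).

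With the mouse as a block 7 more members passed the test. Wnt5b (log2 fold change 0.78, adjusted p = 0.00555), Lrp5 (0.41, adjusted p = 0.0111) and Sfrp4 (0.63, adjusted p = 0.0432) were higher with 4-OHT, and each was higher in 5 of 5 mice. Fzd9 (-0.85, adjusted p = 0.0165), Tcf7l1 (-0.39, adjusted p = 0.017), Sfrp2 (-0.55, adjusted p = 0.0286) and Fzd7 (-0.37, adjusted p = 0.0384) were lower, the first 3 of them in 5 of 5 mice and Fzd7 in 4. Without mouse 36 the block calls of Sfrp2 (-0.50, adjusted p = 0.0662) and Sfrp4 (0.57, adjusted p = 0.0883) were lost and Fzd10 (0.88, adjusted p = 0.0262) was called higher, all in edgeR. Fzd9, the leading receptor of untreated cultures, went from 84.7, 69.8, 62.2, 34.7 and 57.9 CPM to 22.1, 46.9, 41.2, 21.7 and 40.3 CPM. Its untreated and 4-OHT ranges overlapped through mouse 35. Ctnnb1 was at 1318, 1247, 1282, 1578 and 1597 CPM in untreated and 1161, 1178, 1073, 1242 and 1194 CPM in 4-OHT cultures. These groups did not overlap, as in 12% of all genes, but the log2 fold change of -0.26 (SE 0.0999) had an adjusted p of 0.106 without and 0.0596 with the block in edgeR. With the range of mouse numbers as a covariate the log2 fold change was -0.25 and Ctnnb1 was called lower, at an adjusted p of 0.043 in edgeR. It was not called in the other alternatives run. Apc, Gsk3b, Axin1, Axin2, Lrp6, Tcf7 and Tcf7l2 had log2 fold changes between -0.15 and 0.44 and passed neither test.

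**Figure D3:**
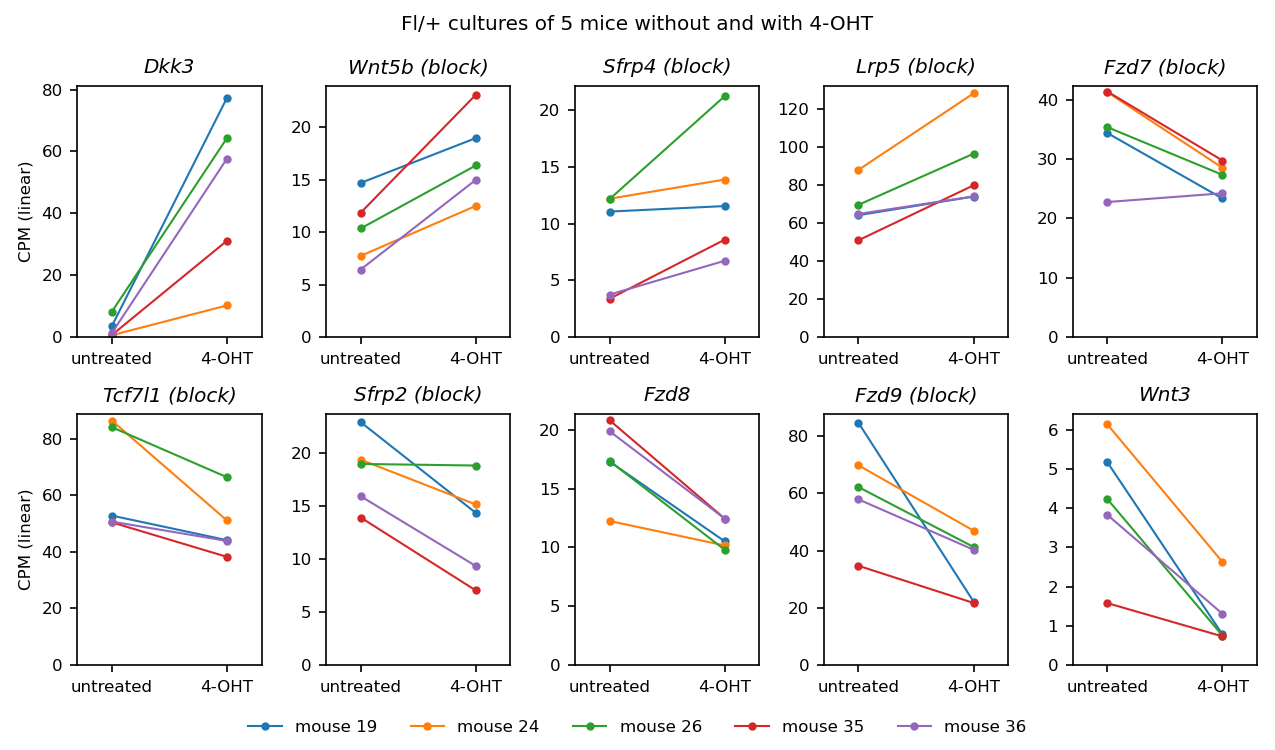
The 10 members called for 4-OHT with the mouse as a block, in CPM on linear axes that start at 0. Each line joins the untreated and the 4-OHT culture of 1 mouse, and "(block)" marks the 7 that passed only with the block. Dkk3 rises and Wnt3 and Fzd8 fall in all 5 mice, and Fzd7 falls in 4 of 5.

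Markers of other cell types moved with 4-OHT. Of 10 oligodendrocyte lineage markers 6 were called higher and none lower, or 60%, beside 7.34% of all genes called higher. Their sum was between 3371 and 4659 CPM in 4-OHT and between 3462 and 4511 CPM in untreated cultures. Most of this sum was Olig1 (mean 1891 CPM in 4-OHT and 2442 CPM in untreated cultures) and Olig2 (837 and 830 CPM). It thus says little about the other markers of the list. Mog, a defining gene of mature oligodendrocytes, was at 0 to 0.07 CPM in untreated and at 0.395 to 1.93 CPM in 4-OHT cultures. Of 8 astrocyte markers 1 was called higher and 3 lower, or 50% in all, and of 12 neural stem cell markers 1 higher and 4 lower, or 41.7%, beside 13.8% of all genes called in either direction. Neuron markers had 1 of 9 called, which was lower (11.1%). With the mouse as a block 6 oligodendrocyte lineage markers were higher and 1 lower (70%), beside 25.7% of all genes. The block called 62.5% of the astrocyte, 58.3% of the neural stem cell and 44.4% of the tested neuron markers. The part of these cells in the results for the members was not tested.

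**Figure D4:**
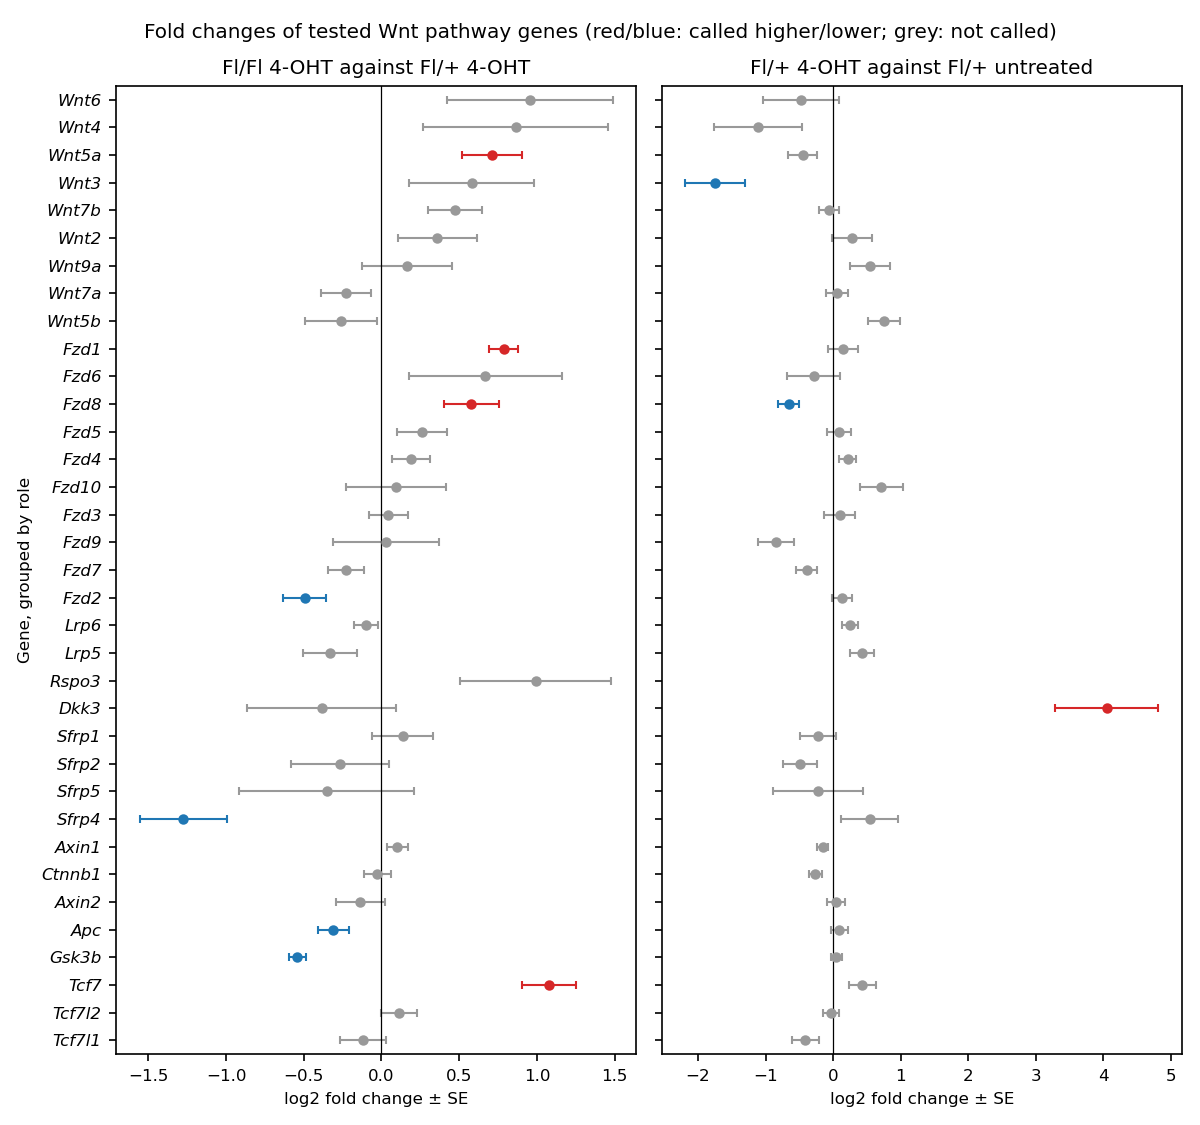
Log2 fold changes with standard errors of the tested members, by role, for Trrap deletion (left) and 4-OHT (right), on different scales. Red and blue mark members called higher and lower, and grey marks members not called. Gsk3b and Fzd1 have the smallest errors among the called members on the left, and Dkk3 at 4.05 lies far from all others on the right.

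Against untreated Fl/+ cultures, which differ in both genotype and treatment and share no mice with them, Fl/Fl 4-OHT cultures had 10 of 35 tested members called, or 28.6%, beside 30.7% of all 15032 genes tested. In 6 of the 35 tested members the groups did not overlap, or 17.1% beside 23.1% of all genes. Higher were Dkk3 (log2 fold change 3.66), Tcf7 (1.51), Fzd1 (0.93) and Fzd10 (0.81), and lower were Wnt3 (-1.17), Sfrp2 (-0.77), Fzd7 (-0.62), Tcf7l1 (-0.53), Gsk3b (-0.50) and Fzd2 (-0.37). With scaling by library size alone 8 members were called higher and 3 lower, and the median of all genes moved from 0.00 to 0.09 on the log2 scale. Without mice 36 and 39, 6 members were called (and 26.6% of all genes, down from 30.7%), and Fzd10, Sfrp2, Tcf7l1 and Wnt3 were lost. Fzd10 measured 38.4, 32.9, 27.5, 14.3 and 29.6 CPM in Fl/Fl 4-OHT and at 11.5, 19.4, 10.6, 18.7 and 22.3 CPM in untreated cultures. Its groups overlapped, and the difference lay among mice numbered under 30 (log2 difference 1.26 against 0.01 over 30). Tcf7l1 stood at 38.4, 41.3, 51.8, 49.1 and 41.4 CPM in Fl/Fl 4-OHT and at 52.8, 86.4, 84.1, 50.4 and 50.7 CPM in untreated cultures, so that Fl/Fl culture 29 was above 2 untreated cultures. Its adjusted p of 0.0424 rose to 0.0563 without mice 36 and 39. Cell type markers moved too, beside 15.7% of all genes called higher and 15.1% lower. Neuron markers were called lower in 6 of 9 tested (66.7%) and neural stem cell markers in 6 of 12 (50%), with none higher. Oligodendrocyte lineage markers had 6 of 10 higher and 1 lower, and astrocyte markers 1 of 8 higher and 3 lower. Ependymal and choroid plexus markers had 2 of 3 higher. Their part in the results for the members was not tested.

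The genes of the pathway outside the members were read from 6 lists with 69 further genes, 64 of which were tested. After Trrap deletion 6 were called higher and 15 lower, or 21 of 64 (32.8%, beside 31.7% of all genes). The lower ones were 23.4% of the 64, beside 15% of all genes called lower. The median log2 fold change over the 64 was -0.05. The partners of Dishevelled and of the destruction complex had 6 of 17 called lower and none higher, or 35.3%, beside the same 15%. Csnk1e, the casein kinase 1ε that phosphorylates Dishevelled, fell by 1.06 (101 ± 5.66 against 213 ± 34.7 CPM, SE 0.109, adjusted p = 0.000117). Amer1, which recruits APC to the membrane, fell by 0.87 (SE 0.119, adjusted p = 0.000473), and Csnk1g1, a casein kinase 1γ at the membrane, by 0.53 (SE 0.0945, adjusted p = 0.00197). Of the nuclear partners of β-catenin 4 of 13 were called lower and none higher, or 30.8%, beside 15% of all genes called lower, led by the corepressor Tle3 (-0.56, SE 0.0936), the coactivator Pygo1 (-0.38, SE 0.109) and the corepressor Ctbp2 (-0.37, SE 0.0721).

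Among planar polarity genes and non-canonical receptors 3 of 14 were called higher and 3 lower, or 42.9% in all, beside 31.7% of all genes. The largest changes were lower Nkd2, an inhibitor of Dishevelled (0.826 ± 0.214 against 2.51 ± 1.26 CPM, log2 fold change -1.58, SE 0.358), lower Ror2, a receptor of Wnt5a (5.88 ± 0.782 against 14.5 ± 2.61 CPM, log2 fold change -1.29, SE 0.153, adjusted p = 0.000245), and lower Celsr3, an atypical cadherin (-0.79, SE 0.192). Of the 10 tested genes of Wnt secretion and surface co-factors 2 were called, or 20%. These were the glypican Gpc4, which was higher (0.81, SE 0.236), and the R-spondin receptor Lgr5, which was lower (-0.82, SE 0.229). Of the 4 other antagonists 1 was called, or 25%, and this was Apcdd1, which sits in the membrane and was lower (-0.72, SE 0.236). The list of β-catenin target genes, 4 of whose 17 genes are members, had 3 of 14 tested genes called higher and 2 lower, or 35.7%, beside the same 31.7%. Tcf7 was the largest rise in it and Lgr5 and Apcdd1 were the falls.

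With 4-OHT, 2 of the 64 were called higher and 5 lower, or 10.9%, beside 13.8% of all genes. With the mouse as a block 7 were called higher and 10 lower, or 26.6%, beside 25.7% of all genes. Wls, which carries Wnt proteins to the cell surface, fell by 0.87 (63.4 ± 14.6 against 116 ± 29.0 CPM, SE 0.193, adjusted p = 0.0138, edgeR). The ubiquitin ligases that remove Frizzled receptors were lower as well, both close to the threshold in edgeR. Rnf43 had a log2 fold change of -1.29 (SE 0.386, adjusted p = 0.0473) and Znrf3 of -0.34 (SE 0.0986, adjusted p = 0.0407). Frzb, a secreted antagonist, fell by 1.48 (SE 0.317) and the receptor Ryk by 0.34 (SE 0.0983), while Csnk1g1 rose by 0.72 (SE 0.0928) and the planar polarity cadherin Celsr2 by 0.80 (SE 0.127). This rise of Csnk1g1 and its fall after Trrap deletion rest on shared Fl/+ 4-OHT libraries. Its means were 26.2 CPM in untreated Fl/+, 43.1 CPM in Fl/+ 4-OHT and 29.4 CPM in Fl/Fl 4-OHT cultures. In Fl/Fl 4-OHT against untreated Fl/+ cultures 3 were higher and 17 lower, or 31.2%, beside 30.7% of all genes. The lower ones were 26.6% of the 64, beside 15.1% of all genes called lower. Among the lower genes were Rnf43 (-1.79), Csnk1e (-0.99), Tle3 (-0.34) and Nkd1 (-1.38), and Celsr2 was higher (1.27). Draxin was also called lower, narrowly (-1.87, SE 0.654, adjusted p = 0.049, edgeR). It ranged from 28.9 to 227 CPM in untreated Fl/+ and from 8.78 to 50.3 CPM in Fl/Fl 4-OHT cultures.

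**Figure D5:**
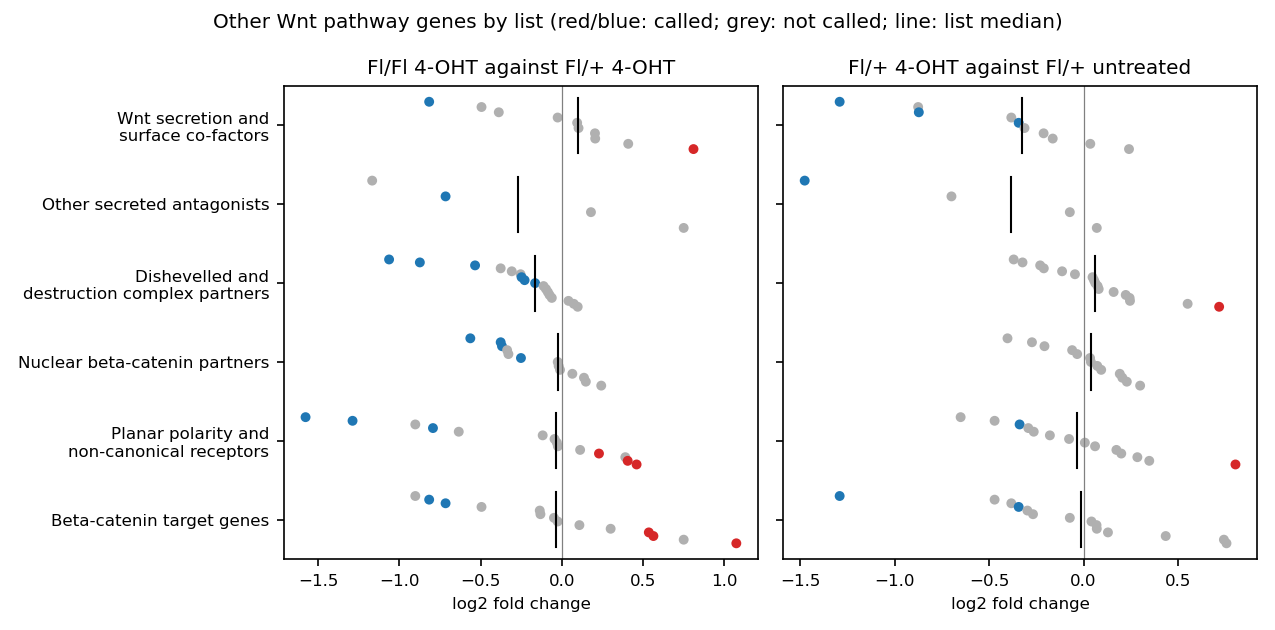
Log2 fold changes of the tested genes in the 6 pathway lists for Trrap deletion (left) and 4-OHT (right). Each point is a gene, red and blue mark genes called higher and lower, grey marks genes not called, and the vertical line is the list's median. After Trrap deletion the called genes of the Dishevelled and nuclear lists are all lower, while those of the other lists except the secreted antagonists lie on both sides.

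The study examined the transcription factor Sp1 as one through which Trrap may act. Its search for binding sites near genes changed in Trrap-deleted cortex and striatum placed Sp1 and TCFs foremost among upstream factors. It describes TCF1, TCF3 and NFAT as Wnt effectors that lie downstream of Sp1. TCF/LEF factors are those of the Wnt pathway itself, so the promoters of members were read for both motifs. Promoter windows of 300 bases, from 250 before to 50 after the start, were found in RefSeq (GRCm38.p6) for 34 of the 52 symbols, 43 windows in all. The GC box GGGCGG, the core letters of Sp1 sites, was in 32 of 43 windows on either strand, or 74.4%, beside 46.2% of the windows of all protein-coding genes and 35.7% of all windows. CTTTGA, the core of TCF/LEF sites, was in 6 of 43 or 14%, beside 14.4% and 16%. The members Apc, Fzd2, Fzd8, Sfrp4 and Wnt5a, called after Trrap deletion, had no window. Several windows belong to members tested in no comparison, Lef1 and Wnt11 among them. These shares thus describe the members with a window and not the called members. A match of one motif can share at most an end base with a match of the other.

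The windows of the called members Fzd1, Tcf7 and Gsk3b are shown because they had the lowest adjusted p-values of the members after Trrap deletion, and that of Axin2 because it is the usual target gene and did not pass the test. Capitals mark the motif matches on either strand. Fzd1 (chr5:4758167-4758466, minus strand) and Gsk3b (chr16:38088751-38089050, plus strand) held 1 TCF/LEF core and no GC box each. Tcf7 (chr11:52282965-52283264, minus strand, the first of its windows) and Axin2 (chr11:108920099-108920398, plus strand) held 2 GC boxes and no TCF/LEF core each. In this Tcf7 window an ATG precedes both GC boxes, and its reading frame has no stop up to the window's end. These boxes may thus lie in coding sequence rather than in a promoter.
Fzd1: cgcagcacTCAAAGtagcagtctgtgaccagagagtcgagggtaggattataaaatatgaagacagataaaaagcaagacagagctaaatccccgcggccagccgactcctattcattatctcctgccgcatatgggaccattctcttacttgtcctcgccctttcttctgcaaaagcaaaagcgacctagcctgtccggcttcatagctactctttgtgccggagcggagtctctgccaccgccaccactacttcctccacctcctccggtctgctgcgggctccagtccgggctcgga
Tcf7: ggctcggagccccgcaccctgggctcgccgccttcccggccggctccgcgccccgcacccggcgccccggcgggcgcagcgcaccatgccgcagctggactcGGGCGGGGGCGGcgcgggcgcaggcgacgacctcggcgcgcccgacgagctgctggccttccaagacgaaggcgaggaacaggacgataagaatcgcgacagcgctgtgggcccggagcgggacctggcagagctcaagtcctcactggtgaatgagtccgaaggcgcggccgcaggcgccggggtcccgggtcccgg
Gsk3b: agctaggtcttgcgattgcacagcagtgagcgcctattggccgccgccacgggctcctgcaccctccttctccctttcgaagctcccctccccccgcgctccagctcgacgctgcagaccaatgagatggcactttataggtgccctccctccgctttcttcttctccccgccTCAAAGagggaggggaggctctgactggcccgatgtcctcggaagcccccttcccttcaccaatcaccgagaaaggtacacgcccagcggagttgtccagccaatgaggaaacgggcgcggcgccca
Axin2: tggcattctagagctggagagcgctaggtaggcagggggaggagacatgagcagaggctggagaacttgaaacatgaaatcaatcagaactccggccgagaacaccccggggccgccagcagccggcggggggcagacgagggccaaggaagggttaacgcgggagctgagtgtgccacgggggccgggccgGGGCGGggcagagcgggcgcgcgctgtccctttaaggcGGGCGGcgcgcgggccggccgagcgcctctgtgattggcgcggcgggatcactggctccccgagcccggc
Fzd1, which rose, and Gsk3b, which fell, thus held the same kind of match. A match is a stretch of letters and not a measured binding site.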

How the data were processed

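Poly(A) RNA was sequenced from stranded libraries as single-end reads. Per the labels and the study's methods, the authors used bcl2fastq 1.8.4, mapped reads with STAR 2.5.4b to GRCm38 and assigned unique reads to Ensembl genes with featureCounts 1.5.0. What the authors deposited is a table of raw counts, without normalization. They dropped reads with several map positions, so near-identical genes are undercounted. The labels and methods describe the 4-OHT exposure differently, so no dose is given.

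Here, IDs were matched to GENCODE vM21 symbols (95 of 53801 unmatched). Each comparison used its own 10 libraries: filterByExpr (minimum count 10), TMM scaling and edgeR 4.0.16's quasi-likelihood F test without covariates (R 4.3.3), with Benjamini-Hochberg adjustment over all genes tested and calls under 0.05. CPM use TMM over 15 libraries. Each group holds 1 culture per mouse. Single values were also tested by exact permutation of log2(CPM + 0.5) (252 arrangements) or by sign flips (32). For 4-OHT an alternative had the mouse as a block, since deviations over 15435 genes correlated within mice at 0.156 to 0.626 (between mice at -0.549 to 0.339). Other alternatives were DESeq2 1.42.0, its size factors, library-size scaling, no count filter, 15 libraries in 1 fit, sex or mouse-number range as covariate, and each library left out. Leaving out mice 36 and 39 was added after seeing the data. The statistics were checked on simulated data. Floors cover counting error only.

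Named in full were called members with at least 1 CPM on average, 11 core members (Ctnnb1, Apc, Gsk3b, Axin1, Axin2, Lrp5, Lrp6, Lef1, Tcf7, Tcf7l1 and Tcf7l2), Trrap, and per pathway list the 3 called genes with the largest absolute log2 fold change. Members described by level, and Wnt7b, Fzd9 and those added by the block, were chosen after their values were seen. The members and lists were chosen with earlier results of these data known.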

Additional observations from a re-analysis of the deposited data

Results flagged for a closer look

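Values of 66 groups of 5 libraries were screened for a single library far from the rest, and chance alone sets off about 1 such group in 20. Fzd10 stood at 51.9 CPM in Fl/+ 4-OHT culture 24, while the other 4 Fl/+ 4-OHT cultures held 19.0 to 25.2 CPM. Lef1 stood at 1.85 CPM in untreated Fl/+ culture 26, while the other 4 held 0 to 0.423 CPM. Axin2 had log2 changes of opposite sign with 4-OHT in mice labelled male (mean log2 change -0.16) and female (0.28), and this difference was not tested. The female mean rests on mouse 24 (0.55), since mouse 26 was at 0.0092, and 1 of the 3 males is mouse 36, whose 4-OHT library held both Xist and Y-linked reads.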

How the results depend on the processing

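After Trrap deletion 5 members were called without mice 36 and 39, 2 of them higher, beside 23.2% of all genes. Leaving out each library in turn gave 6 called members (without Fl/Fl culture 37) to 9 (without Fl/+ 4-OHT culture 24), 3 to 5 of them higher. All genes were called at 29.2% and 28.6% in these 2 fits, beside 31.7% in the main analysis. In the 4-OHT comparison the 3 called members became 5 with DESeq2's Wald test (2 higher), 4 with scaling by library size alone (2 higher), 7 with labelled sex as a covariate (3 higher, 4 lower), 8 with the range of mouse numbers (3 higher, 5 lower) and 10 with the mouse as a replicate block (4 higher, 6 lower). Without mouse 36 the block gave 9 (4 higher, 5 lower). Calls over all genes went from 2044 to 3008, 2108, 2933, 3170, 3809 and, without mouse 36, 3578 in the same order. As shares of the genes tested, they went from 13.8% to 10.5%, 14.2%, 19.8%, 21.4%, 25.7% and 24.0%. The share fell with DESeq2 because it tested 28723 genes, beside 14821 in the main analysis. Leaving out each library gave 1 (without Fl/+ 4-OHT culture 19) to 4 called members, with 1 to 2 higher and 0 to 3 lower. The share of all genes called was 8.5% without that culture and at most 16.7% in these fits. In Fl/Fl 4-OHT against untreated Fl/+ cultures, scaling by library size alone gave 8 higher and 3 lower, beside 31.6% of all genes called. Leaving out mice 36 and 39 gave 6 called and 3 lower, beside 26.6% of all genes. Leaving out each library gave 6 (without untreated culture 24 or 26) to 11 called members with 3 to 8 lower. All genes were called at 24.3% to 31.0% in the latter fits, beside 30.7% in the main analysis. The cause of these changes was not tested. The log2 fold changes that turned their sign were near 0 and never called. With library size alone these were Ctnnb1 after Trrap deletion (0.0056), Tcf7l2 with 4-OHT (0.023) and Axin1 in Fl/Fl 4-OHT against untreated Fl/+ cultures (0.037). When each library was left out, the ranges were -0.090 to 0.00061 for Ctnnb1 and -0.21 to 0.0068 for Tcf7l1 after Trrap deletion, and -0.0092 to 0.084 for Gsk3b, -0.077 to 0.13 for Axin2 and -0.10 to 0.024 for Tcf7l2 with 4-OHT. The filter on low counts left 16 members untested in edgeR. After Trrap deletion DESeq2's Wald test, run without it, called 10 members, with Wnt7b and Wnt8b added (6 higher, 4 lower). Over all 28656 genes it tested, 19.6% were called. Wnt8b had at most 19 counts in any library, and edgeR without the filter called none of the 15 that then had a p-value.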
